A study of Homo sapiens with 8 samples.

Results

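Peaks of the estrogen receptor (ER) were described around 6 estrogen response genes: ABCA3, MAPK13, PDZK1, PRSS23, TGM2 and THSD4. The genes were chosen by the peak calls themselves. Of 82 estrogen response genes that the study's expression analysis had listed as lower after CDK12 knockdown, 7 were the nearest gene to a lost site, meaning a place where both control libraries called a peak and neither knockdown library did, and FKBP4, the seventh of these, was left out. The absence of knockdown peaks at those sites is therefore how the genes were picked and is given as a description without a test. The windows taken were each gene body of the GENCODE annotation and 50 kb on either side, 1.61 Mb in all, and they held 30 of the 35944 deposited peaks.

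The study asked where ER sits on chromatin when CDK12 is depleted. ER chromatin immunoprecipitation and sequencing was done in LY2 cells, an endocrine-resistant ER-positive breast cancer line derived from MCF-7. The cells were depleted of serum for 24 h in medium free of 4-OHT, the active metabolite of tamoxifen. They were then transfected for 48 h with a control small interfering RNA (siCtrl) or with a pool of such RNAs against CDK12 (siCDK12). Afterwards both groups alike were exposed for 1 h to β-estradiol at 1 µmol/L. The ER peak lists were 2 per group, siCtrl replicates 2 and 3 and siCDK12 replicates 3 and 4, all from the same line, and neither the labels nor the methods say whether they came from separate cultures. CDK12 itself is not measured by these lists, so the knockdown could not be checked in them.

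ER is a hormone-activated transcription factor. With estradiol bound it pairs with itself and recognises the estrogen response element, an inverted repeat of a short half-site with a 3-base spacer, and it recruits coactivators such as the Mediator complex to turn on nearby genes. CDK12 is a kinase of elongating RNA polymerase II. The 6 genes are responders to estrogen with unrelated products. ABCA3 is a lipid transporter and PDZK1 a scaffold that holds transporters at the cell membrane, MAPK13 is a stress-activated protein kinase, PRSS23 is a secreted serine protease, TGM2 is the transglutaminase that cross-links proteins, and THSD4 is a secreted protein of extracellular matrix fibrils.

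Peaks were counted as present when their q-value was below 0.05, and peaks that overlapped by at least 1 bp were joined into sites. The 6 windows held 21 sites. Both siCtrl libraries had a peak at 8 of them, and at none of the 8 was any siCDK12 peak deposited, with or without the q-value threshold. These sites were 2 at ABCA3, 2 at THSD4 and 1 at each of the other genes. Across the genome 68.2% of the 667 sites with a peak in both siCtrl libraries were lost, and 75.4% of those in the same range of strength, so loss was the common outcome of such sites. No site in the windows had a peak in both siCDK12 libraries and neither siCtrl library, the mirror case, which 0.290% of the 20033 protein-coding genes had in their windows.

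The sequences that both siCtrl peaks covered are shown because they hold the closest match to the response element at each site, printed in capitals. They were read from the forward strand of GRCh38. Of ABCA3 site 1, which lies in an untranslated exon, only the element with 8 bases on either side is printed, and the first site at THSD4 is printed up to the RefSeq transcript start. The stretches are chr16:2329783-2329811 and chr16:2341572-2341725 at ABCA3, chr1:145708231-145708499 at PDZK1, chr6:36118498-36118652 at MAPK13, chr11:86776312-86776456 at PRSS23, chr20:38145089-38145307 at TGM2, and chr15:71096776-71096893 and chr15:71104813-71104973 at THSD4.
ABCA3 site 1: aggtttggGAACACCGTGACCtcgcagga
ABCA3 site 2: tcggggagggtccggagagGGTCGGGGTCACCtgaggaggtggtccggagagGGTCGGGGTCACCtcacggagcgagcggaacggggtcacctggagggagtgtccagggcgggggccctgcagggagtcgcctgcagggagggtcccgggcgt
PDZK1 site: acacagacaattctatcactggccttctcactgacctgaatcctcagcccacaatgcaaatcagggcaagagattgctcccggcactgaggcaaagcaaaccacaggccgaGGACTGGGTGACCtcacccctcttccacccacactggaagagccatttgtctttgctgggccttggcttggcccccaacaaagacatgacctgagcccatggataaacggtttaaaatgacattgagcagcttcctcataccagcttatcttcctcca
MAPK13 site: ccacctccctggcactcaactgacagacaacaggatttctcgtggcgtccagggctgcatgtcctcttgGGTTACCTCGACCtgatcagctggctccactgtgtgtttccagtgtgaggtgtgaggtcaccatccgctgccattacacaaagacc
PRSS23 site: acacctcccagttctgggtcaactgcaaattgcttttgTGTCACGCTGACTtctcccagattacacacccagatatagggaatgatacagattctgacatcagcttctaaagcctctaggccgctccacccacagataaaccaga
TGM2 site: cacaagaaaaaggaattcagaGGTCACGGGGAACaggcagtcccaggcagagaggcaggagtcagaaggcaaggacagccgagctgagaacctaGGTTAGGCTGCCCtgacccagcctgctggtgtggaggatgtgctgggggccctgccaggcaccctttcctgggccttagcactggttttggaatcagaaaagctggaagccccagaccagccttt
THSD4 site 1: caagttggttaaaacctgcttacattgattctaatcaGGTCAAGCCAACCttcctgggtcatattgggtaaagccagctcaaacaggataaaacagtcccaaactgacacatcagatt
THSD4 site 2: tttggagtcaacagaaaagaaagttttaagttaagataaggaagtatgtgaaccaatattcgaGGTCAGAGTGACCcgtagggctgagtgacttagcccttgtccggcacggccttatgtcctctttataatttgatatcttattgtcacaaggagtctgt

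Peak strength is given below as the pileup, the number of extended reads stacked at the summit (called fragments here), which was solved from the fold and p-value of each deposited peak together with the local background of the peak caller. Fold is the pileup plus 1 over the background plus 1. Pileups are not scaled to a common depth. The lowest background in each list was 1.01 and 1.16 fragments in siCtrl replicates 2 and 3. In siCDK12 replicates 3 and 4 it was 1.23 and 1.18 fragments, not lower than in siCtrl. No read depth is given, so whether depth or enrichment differed between the groups was not tested. The number of peaks past the threshold did differ between libraries of the same group. It was 12021 and 4955 in the siCtrl libraries and 4819 and 5224 in the siCDK12 libraries, and 94.8% of all 25365 sites were seen in a single library.

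In the windows of the 6 genes the counts of peaks past the threshold were 12 and 11 in the siCtrl libraries and 3 and 3 in the siCDK12 libraries. Of the siCtrl peaks, 8 in each library belonged to the 8 lost sites. The other 7 siCtrl peaks and all 6 siCDK12 peaks were sites of a single library. The ratio of mean peak numbers, siCDK12 over siCtrl, was 0.261 in the windows, a value that the choice of genes by their lost sites fixes to be low. Away from the lost sites the libraries had 4, 3, 3 and 3 peaks, a ratio of 0.857, and over whole libraries the ratio was 0.592.

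**Figure D1:**
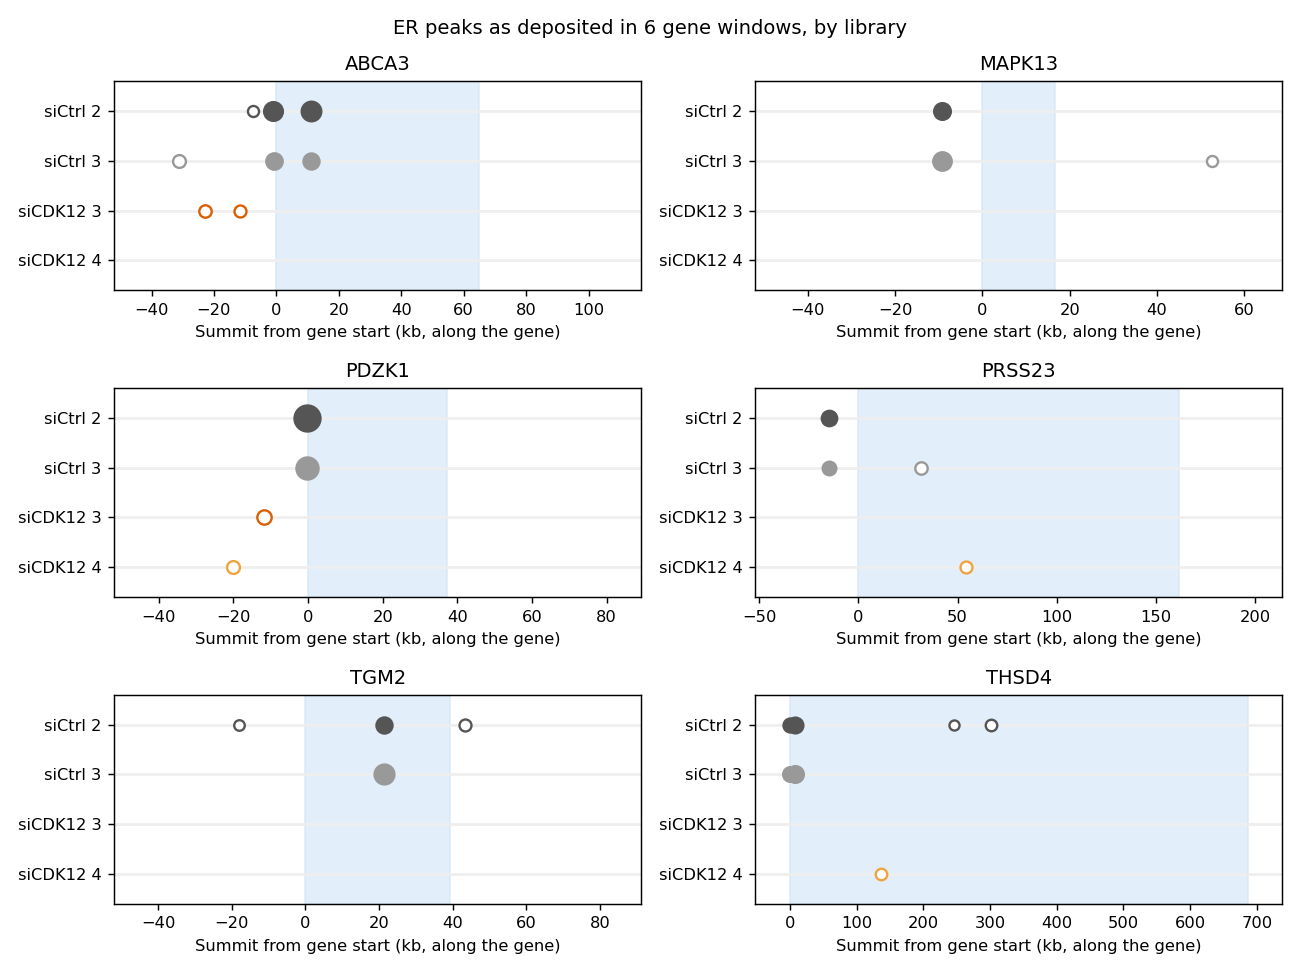
Deposited ER peaks in the 6 windows, with 1 panel per gene and 1 row per library. The horizontal axis is the distance of the summit from the gene start in kb along the direction of transcription, the shaded band is the gene body, point area grows with pileup, filled points are the 8 lost sites and open points are peaks of a single library, including 1 in THSD4 that did not pass the q-value threshold. The filled points stand in line in the 2 siCtrl rows, and no siCDK12 point lies below them.

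At the 8 sites the mean pileup of the siCtrl libraries ran from 16 to 52 fragments, with a median of 26, against a median of 22.5 over all 455 lost sites. The siCtrl replicates called their summits within 80 bp of each other at every site, with a median gap of 10.5 bp. Replicate 2 had the higher pileup at 4 sites and replicate 3 at the other 4.

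PDZK1, the membrane scaffold, had the strongest site. Its pileup was 61 fragments in siCtrl replicate 2 and 43 in siCtrl replicate 3, with a mean of 52 ± 12.7 (SD, n = 2), and neither siCDK12 list held a peak there. By mean pileup it ranked 40 among the 455 lost sites. The local background was higher in replicate 3, at 7.64 fragments against 3.64 in replicate 2, which left folds of 13.4 and 5.09. The site, chr1:145708196-145708500, ended 48 bp upstream of the annotated gene start, and its summit in replicate 2 lay 1000 bp upstream of where the canonical transcript begins. Its closest element, centred 20 bp from that summit in replicate 2 and 14 bp from the summit in replicate 3, kept one half-site whole and had the changes T3A and A5T in the other, counting positions from 1 at the 5′ end of the element on the printed strand and giving the consensus base first. Both siCDK12 libraries had a peak elsewhere in the PDZK1 window, but not at the same place. One of 16 fragments in siCDK12 replicate 3 lay 11.7 kb upstream of the gene start, and one of 12 fragments in siCDK12 replicate 4 lay 20.1 kb upstream.

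ABCA3, the lipid transporter, had lost sites on both sides of its start. ABCA3 site 1, chr16:2329695-2329900, lay 10846 bp into the gene and overlapped 160 bp of exon 2 of the canonical transcript, a 5′ untranslated exon. Its pileups were 33 fragments in siCtrl replicate 2 and 21 in siCtrl replicate 3, with folds of 7.32 and 4.32. Its closest element had both mismatches, G2A and T3A, in one half-site, and the other half-site was whole. The nearest annotated gene start to it was that of a processed pseudogene, ENSG00000243445, so this site alone among the 8 played no part in choosing the genes. The study's own primers for measuring ER binding at ABCA3 by PCR match the genome exactly at chr16:2329777-2329879, inside this site, and are shown for that reason.
ABCA3 forward primer: accctgaggtttgggaacac
ABCA3 reverse primer: tcaaacaccttccatctgtcc
Both siCtrl peaks overlapped the 103 bp amplicon, and no siCDK12 peak did.

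ABCA3 site 2, chr16:2341540-2341808, lay 794 bp upstream of the gene start and inside the transcribed pseudogene ABCA17P. It had 30 fragments in siCtrl replicate 2 and 22 in siCtrl replicate 3, with folds of 8.30 and 5.57. Its printed stretch was 73.4% G and C. The site held 4 copies of an element with 2 mismatches, 3 of them with the same changes A5G and G10C, and the summits of the libraries were 80 bp apart, the widest gap of the 8 sites. Other ABCA3 peaks were weak and each in a single library. They had 8 fragments in siCtrl replicate 2, 12 in siCtrl replicate 3, and 10 and 11 in siCDK12 replicate 3, all upstream of the gene.

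MAPK13, the stress-activated kinase, had its lost site at chr6:36118481-36118683, which ended 9126 bp upstream of the gene start in no annotated gene. The pileup was 23 fragments in siCtrl replicate 2 and 29 in siCtrl replicate 3, a mean of 26 ± 4.24 (SD, n = 2), and the folds were 6.43 and 8.64. The element there had 1 mismatch in each half-site, C4T and T9C, and was centred 3 bp from the summit of replicate 2. Neither siCDK12 library had a peak anywhere in the MAPK13 window. The nearest deposited one was 177 kb from the site and, with −log10 q of 1.02, did not pass the threshold. A peak of 8 fragments in siCtrl replicate 3 alone also lay in the window.

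TGM2, the transglutaminase, had its site within the gene, in intron 6 of the canonical transcript, 21269 bp downstream of the gene start at chr20:38145063-38145309. The pileup was 21 fragments in siCtrl replicate 2 and 34 in siCtrl replicate 3, with folds of 5.89 and 10.5. In replicate 3 it was the strongest of the 8 by rank, at 96 of 6913 deposited peaks, and in replicate 2 it ranked 459 of 15149. Elements with 2 mismatches stood 11 bp and 84 bp from the summit of replicate 2. As at MAPK13, the window had no siCDK12 peak. Peaks of 10 and 7 fragments, in siCtrl replicate 2 alone, also lay in the TGM2 window.

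PRSS23, the secreted protease, had one of the weakest of the 8 lost sites at these genes. At chr11:86776279-86776467, 14592 bp upstream of the gene start, it had 19 fragments in siCtrl replicate 2 and 14 in siCtrl replicate 3, with folds of 4.31 and 4.92. Its −log10 q was 4.17 and 3.68, the latter being the value closest to the threshold among the 16 siCtrl peaks of the lost sites. The element had a mismatch at each outer end, G1T and C13T. The gene body held 1 peak of 11 fragments in siCtrl replicate 3 and 1 of 10 fragments in siCDK12 replicate 4, at different places.

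THSD4, the matrix protein, had 2 sites near the first of its annotated starts. THSD4 site 1, chr15:71096758-71096938, ended 14 bp upstream of the GENCODE gene start and lay wholly inside the RefSeq promoter window of a THSD4 transcript. It had 15 and 17 fragments in siCtrl replicates 2 and 3, with summits at the same base. The background was 1.03 in replicate 2 and 2.87 in replicate 3, so that nearly equal pileups gave folds of 7.89 and 4.66. The canonical transcript starts 18519 bp farther downstream, and its RefSeq promoter overlapped no lost site. The element at site 1 had both its mismatches, T9C and G10A, in one half-site.

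THSD4 site 2, chr15:71104809-71105003, was in intron 1 of 1 of the 7 annotated transcripts, 7857 bp downstream of the gene start. It had 20 fragments in siCtrl replicate 2 and 23 in siCtrl replicate 3, a mean of 21.5 ± 2.12 (SD, n = 2), with folds of 9.74 and 6.21. This site held the one exact element, at chr15:71104876-71104888, centred 15 bp and 26 bp from the summits of replicates 2 and 3. No other exact element was found anywhere in the 1.61 Mb of the 6 windows. That is 0.623 per Mb, near the 0.714 per Mb of chromosomes 1 to 22, X and Y. The sequence of the site is one of a family of repeats. It matched 594 other places on the primary chromosomes in a nucleotide search, 301 of them over at least 50% of its length, and the best was 82.9% identical over 193 bp. At the other sites only ABCA3 site 2 had any such match, with 2, the better one 75.8% identical over 91 bp. The rest of THSD4, a gene of 686432 bp, held 1 siCtrl replicate 2 peak of 9 fragments, 1 siCDK12 replicate 4 peak of 9 fragments, and the single deposited peak that missed the threshold, of 6 fragments in siCtrl replicate 2.

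How much ER signal could still have been present after knockdown was estimated from the Poisson p-value at the summit alone. Any further condition of the caller, such as a minimum peak width, was left out, so a stronger summit could also have gone unlisted. At the higher of the siCtrl backgrounds of each site, a siCDK12 summit would have reached the p-value for being deposited from 9 to 17 fragments. It would have reached that for passing the q-value threshold from 12 to 22 fragments. PDZK1 needed 17 fragments to be deposited, and its siCtrl pileups were 61 and 43. MAPK13, TGM2 and THSD4 site 2 needed 9, and their lowest siCtrl pileups were 23, 21 and 20. ABCA3 sites 1 and 2 needed 12 and 10, and their lowest were 21 and 22. The margins were narrowest at PRSS23, which needed 11 to be deposited and had 19 and 14, and at THSD4 site 1, which needed 9 and had 15 and 17. The siCDK12 pileup below these numbers is not in the lists, so the absence of a peak does not give the size of the decrease, and the siCDK12 background at these sites is likewise unknown.

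**Figure D2:**
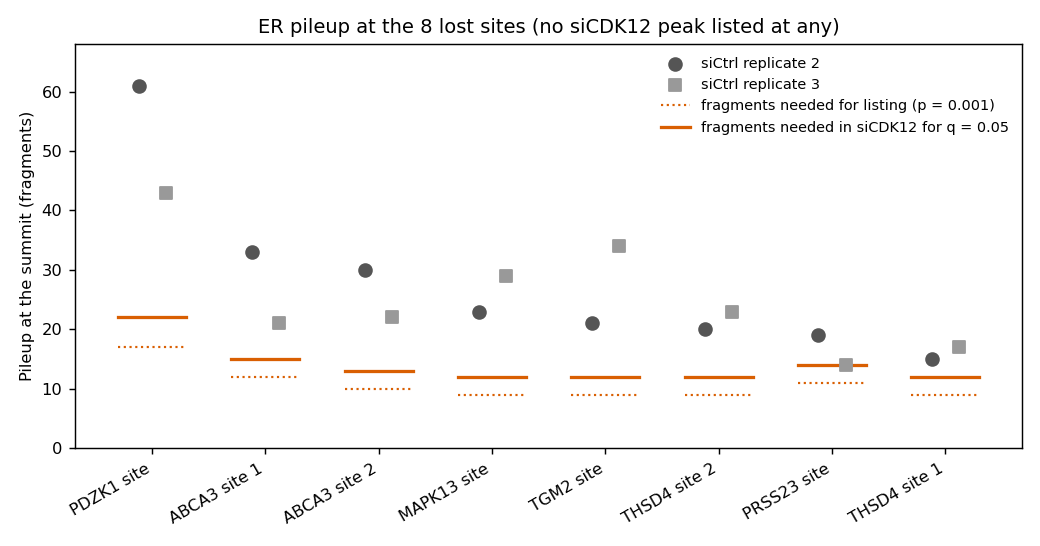
Pileup at the summit in fragments at each of the 8 lost sites, for siCtrl replicate 2 (circles) and siCtrl replicate 3 (squares). Dotted lines mark the pileup at which a siCDK12 summit would have reached the p-value for being deposited. Solid lines mark that for passing the q-value threshold. Both are at the higher siCtrl background and by the p-value alone. The PDZK1 points, 61 and 43, stand well above its lines, and the replicate 3 point of PRSS23, 14, lies on its solid line.

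Set among all 667 sites with a peak in both siCtrl libraries, the 8 sites were mostly on the weaker side, with 7 of them below the median mean pileup of 29.5 fragments and PDZK1 above it. Sites that kept a peak in all 4 libraries, 66 in number, had a median mean pileup of 65.5 fragments, above that of each of the 8 sites, the highest of which was PDZK1 at 52. None of the 6 genes had a site of all 4 libraries in its window, where 0.494% of all protein-coding genes had one. Among 6 genes, none is near that share.

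**Figure D3:**
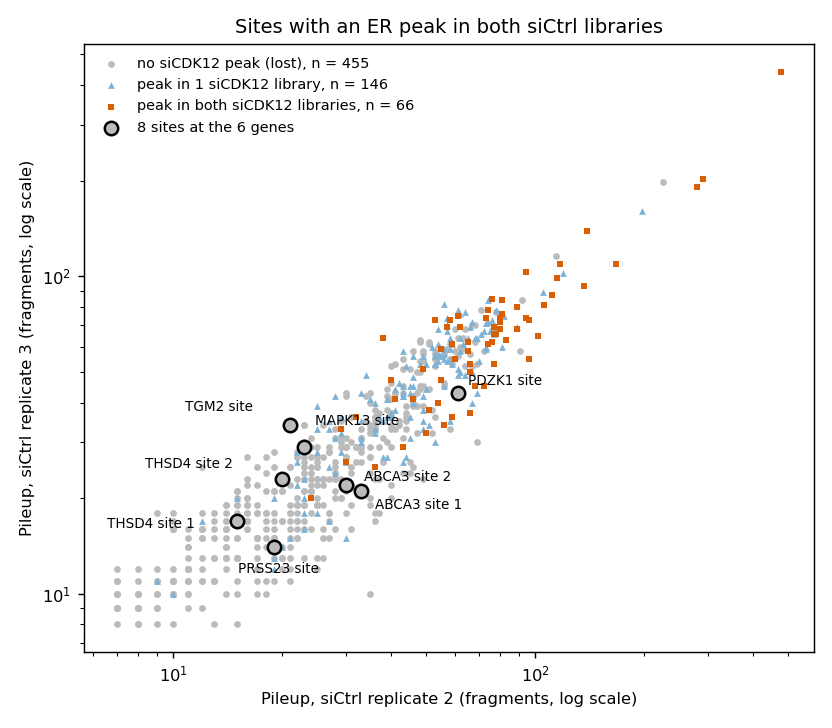
Pileup in siCtrl replicate 2 against siCtrl replicate 3, both in fragments on log axes, for the 667 sites with a peak in both. Grey points are the 455 lost sites, blue triangles the 146 with a peak in 1 siCDK12 library and orange squares the 66 with a peak in both, and the ringed points are the 8 sites at the 6 genes. The ringed points lie in the body of the lost sites, with PDZK1 at their upper right.

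The closest match to the element had 2 mismatches at 7 of the 8 sites and was exact at THSD4 site 2. The element was spelled ggtcannntgacc, read on both strands, which are equivalent for an inverted repeat, and sought within 100 bp of a siCtrl summit. With at most 1 mismatch over its 10 fixed bases it was found at 1 of the 8 sites, THSD4 site 2, where the share of all lost sites was 27.5%. With at most 2 mismatches it was found at all 8, where the share of all lost sites was 59.8% and that of windows placed 1000 bp beside the lost sites was 9.67%. With 8 sites these shares are descriptions, and they were not tested. At 5 of the 7 sites without an exact element, ABCA3 site 1, PDZK1, THSD4 site 1, MAPK13 and TGM2, the half-site preceded by an A, spelled aggtca, also stood within 100 bp of a summit, and so it did at THSD4 site 2. It overlapped the element at each of these but MAPK13. That made 6 of 8 sites, beside 54.7% of all lost sites and 17.4% of the windows beside them.

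Letters known for other factors of breast cells were counted in the same windows. The AP-1 motif tgagtca and the forkhead motif tgtttac were at none of the 8 sites. Of all lost sites 7.03% and 1.54% had them, so none among 8 sites is near that background. The GATA motif agataa was at 3 sites, PRSS23 and both THSD4 sites, beside 12.5% of all lost sites and 13.2% of the windows beside them. All 3 were searched on both strands, and the absence of these letters says nothing about the factors.

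**Figure D4:**
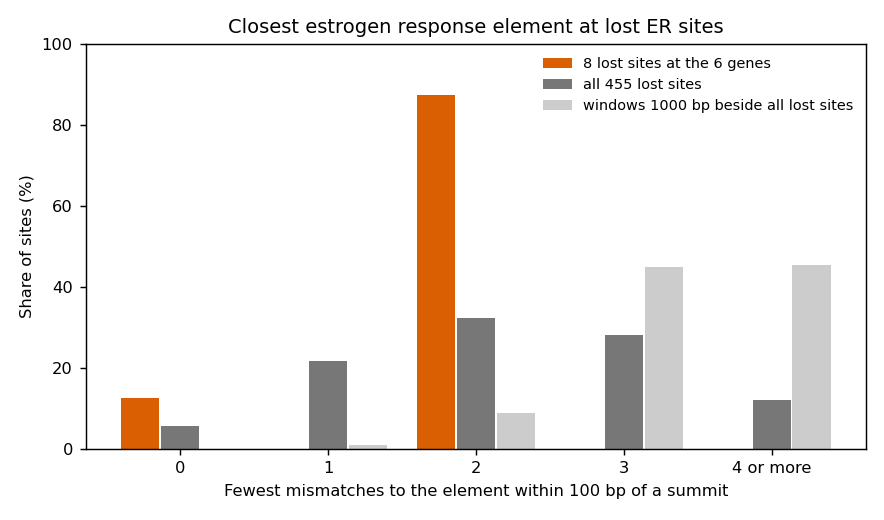
Share of sites, in percent, by the fewest mismatches to the response element within 100 bp of a summit, for the 8 lost sites at the 6 genes (orange), all 455 lost sites (dark grey) and windows 1000 bp beside these (light grey). Of the 8 sites, 1 stands at 0 mismatches and 7 at 2, while the lost sites as a whole spread from 0 to 4 or more.

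The 13 sites of a single library in the windows had pileups of 7 to 16 fragments, folds of 3.43 to 5.46 and −log10 q of 1.32 to 3.53. By −log10 q each lay below every siCtrl peak of the 8 lost sites, of which the lowest was 3.68, while by pileup and by fold the ranges overlapped. None of the 13 had an element with at most 2 mismatches within 100 bp of the summit, beside 10.4% of the 24058 sites of a single library across the genome. At the q-value threshold, the peak just inside was one of 11 fragments upstream of ABCA3 in siCDK12 replicate 3, with −log10 q of 1.32, and the one just outside was the THSD4 peak in siCtrl replicate 2, with 0.96. Beyond the windows, the nearest deposited peak was one of siCDK12 replicate 4 at 55.9 kb from TGM2.

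The lost sites of these genes were also closer to gene starts than most. The sites of PDZK1, THSD4 site 1 and ABCA3 site 2 lay within 1000 bp of the start of a protein-coding gene, 3 of 8, where the share of all lost sites was 3.96%. The median distance to a protein-coding start was 8491.5 bp at the 8 sites and 64867 bp over all lost sites. The genes were picked for lying next to a lost site, and a gene list can favour short distances, so these values describe the choice as well as the sites.

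Of the other 76 estrogen response genes of the list, 25 (32.9%) had a site in their window that both siCtrl libraries called, where 3.70% of all protein-coding genes did, and 7 (9.21%) had a site of all 4 libraries, where 0.494% did. A lost site was in the windows of 12 (15.8%), where 2.85% of all protein-coding genes had one. Among genes with a site called by both siCtrl libraries, 12 of 25 (48.0%) had a lost one and 571 of 742 (77.0%) did over all protein-coding genes. The 6 genes, picked for their lost sites, are left out of the 25 and kept in the 742. That choice by itself lowers the first share, so the 2 shares are not a like comparison, and their difference was not tested. The count of 12 also rested on both siCtrl libraries. It was 29 without siCtrl replicate 2 and 40 without siCtrl replicate 3. A lost site then needed a peak in only the remaining siCtrl library, a looser rule that by itself favours a higher count. The 12 genes were BAG1, CBFA2T3, FKBP4, GREB1, KCNK15, NRIP1, RARA, SERPINA1, SLC2A1, SLC7A5, SYT12 and TIAM1. CBFA2T3 and GREB1 had 2 lost sites each. None of the 76 genes had a gained site. FKBP4, a co-chaperone of steroid receptors and the one gene of the list next to a lost site that is not among the 6, had 16 and 27 fragments in siCtrl replicates 2 and 3 at a site 980 bp downstream of its start, with an element of 1 mismatch. The list was held without the end of its early-response part, so these are counts over the genes held.

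The genes whose windows were most like those of the 6 were found by the distance between the highest −log10 p of any deposited peak per library, on a log2 scale with 1 added, over the 4 libraries. They included PADI4, SLC41A2, RCL1 and FHIT, at distances of 0.82 to 1.15 from the median of the 6 genes. None of these 4 is in the estrogen response list. At PADI4, the nearest, the highest −log10 p was 24.6 and 17.5 in siCtrl replicates 2 and 3, with no peak in siCDK12 replicate 3 and 3.05 in siCDK12 replicate 4. The 6 genes themselves lay 1.48 to 3.88 from their own median. PADI4 and the others were taken for being closest to that median, so these ranges are not a like comparison.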

How the data were processed

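ER immunoprecipitated libraries of LY2 cells were analysed as deposited peak lists, 2 per group. Input libraries were not analysed here. The authors trimmed reads with SOAPnuke, aligned them with BWA-MEM to GRCh38 and called narrow peaks per library against input with MACS2. The deposited columns hold a score, the fold over background (a ratio), the −log10 p and the −log10 q. The lists extend beyond the threshold given in the methods, so q below 0.05 was applied here. No read depth is given. The fold and −log10 p that the authors deposited were solved for pileup and background under the Poisson model, to within 0.005 of the stated −log10 p for 100% of peaks. Chromosomes 1 to 22, X and Y were used. Sites, elements and gene windows were derived with Python 3.11.15, pandas 2.3.3, SciPy 1.17.1 and pysam 0.24.0, GENCODE release 44 and GRCh38, repeats were sought with BLAST+ 2.17.0 (E-value 1e-05), and promoters came from RefSeq (GRCh38.p14). The functions were checked on simulated data. No p-value was computed, because the genes were selected on these peak calls. The genes, lists and rules were chosen with earlier results of these data known. Genes named were the 6 members, the nearest gene of each site seen in both siCtrl libraries, listed genes nearest to a lost site, and the 5 protein-coding genes of most similar pattern, of which 1 is not reported here; other listed genes with a lost site in the window were named after their values were seen. Alternatives were other thresholds, equal list sizes, summit windows, other gene windows, element rules and leaving out each library.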

Additional observations from a re-analysis of the deposited data

How the results depend on the processing

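No paired analysis was possible because the groups share only replicate number 3. Of 87 recomputed values, 69 stayed within 1.5 times of the reported count or within the spread of the reported ratio (0, as both siCDK12 libraries had 3 peaks), 18 did not, and none reversed. All 8 lost sites remained with the peaks as deposited, at −log10 q of at least 3, with equal list sizes of 4819 peaks and with summit windows. Windows of 100 kb also held 8, but windows of 10 kb held 7, at 5 of the genes, as the PRSS23 site lay outside. A fold threshold of 5 and a −log10 q threshold of 5 each left 5 sites called by both siCtrl libraries and 5 lost sites, dropping ABCA3 site 1, PRSS23 and THSD4 site 1. Leaving out each library gave 8 to 12 sites for both counts, and 0 to 3 gained sites, 3 without siCDK12 replicate 3 and 3 without siCDK12 replicate 4. With a library left out, its group was judged by the remaining library alone, a looser rule that by itself favours higher counts. Sites with an element rose from 1 to 8 with at most 2 mismatches. The other listed genes with a lost site numbered 12 as reported and 15 to 40 without 1 library, 29 without siCtrl replicate 2 and 40 without siCtrl replicate 3. In windows of 10 and 100 kb they numbered 8 and 17. The ratio of mean peak numbers, siCDK12 over siCtrl, which the choice of genes fixes to be low, was 0.261 as reported, 0.25 as deposited, 0.0588 and 0 at −log10 q of at least 3 and 5, 0 at a fold of at least 5, 0.286 with equal list sizes, 0.111 and 0.28 in windows of 10 and 100 kb, and 0.25 to 0.273 without 1 library. The causes were not tested. With 2 libraries per group and no read counts, partial decreases in ER signal are beyond what these lists can show.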
